A study of Mus musculus with 117 samples.

Results

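Chromatin states that were private to hepatocytes of NZO/HlLtJ, the obese and diabetes-prone New Zealand strain, were described on autosomes 1 to 19. The genome was read in bins of 200 bp, and a bin was called private when the other 8 strains shared 1 state and NZO/HlLtJ had another. This held for 101333 of 12313718 autosomal bins, or 0.823%, a total of 20.3 Mb. The private bins formed 43251 runs of adjacent bins. Of these runs 50.6% were 1 bin long, and the longest had 77 bins.

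The hepatocytes came from livers of females aged 12 weeks, with no treatment given, of 9 inbred strains. These were NZO/HlLtJ, the wild-derived WSB/EiJ, PWK/PhJ and CAST/EiJ, and the laboratory strains C57BL/6J, NOD/ShiLtJ, 129S1/SvImJ, DBA/2J and A/J. Each strain had 13 ChIP-seq libraries, made from 3 mice with antibodies to the 4 histone marks H3K4me1, H3K4me3, H3K27ac and H3K27me3, plus 1 input, 117 libraries in all. The authors' deposited segmentations assign 1 of 14 numbered states to each bin and combine the mice of a strain, so each strain gave 1 value and the spread between mice is not known. Body weight and blood glucose of the mice are not given in the sources used here. Every mean ± SD below is over the other 8 strains. Because 1 strain stands against 8, an exact permutation of the strain labels could not go below p = 0.111, and no p-value is given for any difference between strains. The sequencing depth behind the segmentations is unknown.

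A chromatin state is a recurrent combination of histone marks. H3K4me3 and H3K27ac mark active gene starts, H3K4me1 marks enhancers and the flanks of starts, and H3K27me3 marks genes silenced by Polycomb. The liver makes and exports triglyceride, glucose and cholesterol under the control of insulin and leptin. In NZO mice obesity is polygenic and comes with insulin resistance and a fatty liver.

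The marks that define each numbered state are not given in the sources used here, so the states were placed by where they lay. In NZO/HlLtJ state 14 held 77.8% of the autosomes and state 13 held 10.01%. At the starts of 10 hepatocyte genes such as Alb and Hnf4a, states 1 and 3 held 42.9% and 34.4% of the NZO/HlLtJ bins and state 13 held none. At the starts of 20 developmental regulators, which are Polycomb targets in adult tissue, state 13 held 47.1% and states 10 and 12 held 25.6% and 19.5%. State 4 held 11.04% of the hepatocyte start bins and none of the developmental ones. States 1 to 4 together covered 91.6% of the hepatocyte start bins of NZO/HlLtJ, inside the range of 87.7% to 100% in the other strains. Since the states were placed by these same starts, this describes the hepatocyte genes and is no separate check of the cell type.

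The 6 promoters shown next are a selection, made after the values were seen, from the genes described below with private bins in the stretch before a listed start. They are examples of promoters in which bins changed state. The letters are those of the reference genome, and the NZO/HlLtJ sequence, which may differ, was not read. Each is the stretch of 250 bases before the start in RefSeq GRCm38.p6, written 5′ to 3′ on the strand of the gene, with CpG dinucleotides in capitals. The starts of Lepr (leptin receptor) and Lrtm2 exchanged 1 state other than 14 for another, and those of Fcamr, Rgs8 and Ccl20 went to state 14. At Ppp1r3g (glycogen targeting) such an exchange lay before the start, which was not itself private. Only 1 private bin, ending at chr13:35967800, reached its printed stretch.
Ppp1r3g: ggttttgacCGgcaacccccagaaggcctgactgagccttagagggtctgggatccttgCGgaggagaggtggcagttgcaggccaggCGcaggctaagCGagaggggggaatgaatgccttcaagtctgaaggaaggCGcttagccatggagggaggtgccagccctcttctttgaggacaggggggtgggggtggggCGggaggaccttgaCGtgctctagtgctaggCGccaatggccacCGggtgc
Lepr: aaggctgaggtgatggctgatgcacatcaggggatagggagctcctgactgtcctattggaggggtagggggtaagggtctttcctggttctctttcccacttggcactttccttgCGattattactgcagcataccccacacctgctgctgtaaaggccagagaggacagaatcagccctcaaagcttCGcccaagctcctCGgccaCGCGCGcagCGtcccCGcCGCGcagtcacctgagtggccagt
Lrtm2: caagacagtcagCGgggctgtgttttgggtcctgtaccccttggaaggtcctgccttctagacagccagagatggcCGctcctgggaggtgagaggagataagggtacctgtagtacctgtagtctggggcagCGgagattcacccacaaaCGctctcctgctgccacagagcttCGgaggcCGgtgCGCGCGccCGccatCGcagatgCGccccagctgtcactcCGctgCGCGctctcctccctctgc
Fcamr: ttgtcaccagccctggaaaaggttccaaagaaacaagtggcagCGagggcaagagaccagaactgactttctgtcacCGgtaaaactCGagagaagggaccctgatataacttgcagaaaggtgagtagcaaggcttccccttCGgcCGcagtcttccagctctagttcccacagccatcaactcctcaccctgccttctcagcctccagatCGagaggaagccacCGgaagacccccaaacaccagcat
Rgs8: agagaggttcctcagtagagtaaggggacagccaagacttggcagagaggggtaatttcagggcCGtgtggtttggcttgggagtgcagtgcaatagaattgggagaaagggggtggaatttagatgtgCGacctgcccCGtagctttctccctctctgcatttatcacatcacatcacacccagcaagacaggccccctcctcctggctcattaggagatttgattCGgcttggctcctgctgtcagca
Ccl20: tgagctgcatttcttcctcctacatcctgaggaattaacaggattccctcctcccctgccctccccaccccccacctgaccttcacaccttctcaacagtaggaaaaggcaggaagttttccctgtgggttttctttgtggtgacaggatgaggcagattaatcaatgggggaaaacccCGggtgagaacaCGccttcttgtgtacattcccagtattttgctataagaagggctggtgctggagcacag
The Ppp1r3g stretch (chr13:35967656-35967905, plus strand) held 9 CpG dinucleotides and 63.2% G and C, that of Lepr (chr4:101717157-101717406, plus strand) 10 and 58.4%, and that of Lrtm2 (chr6:119330767-119331016, minus strand) 15 and 63.2%. The 3 that went to state 14 held 7 at Fcamr (chr1:130800652-130800901, plus strand), 4 at Rgs8 (chr1:153665024-153665273, plus strand) and 2 at Ccl20 (chr1:83116516-83116765, plus strand). Other exchanged promoters overlap with these in number, such as those of Fgg with 4 and Idi1 with 7.

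Ppp1r3g encodes a subunit that brings a phosphatase to glycogen. Its 4 private bins ran from chr13:35967001 to 35967800, where the other 8 strains were in state 3 and NZO/HlLtJ was in state 9. Lepr encodes the leptin receptor, and 2 bins across its start were in state 1 in the other strains and in state 5 in NZO/HlLtJ. State 5 is rare and held 0.0262% of the NZO/HlLtJ autosomes. Within 1 kb downstream of the Lepr start DBA/2J and WSB/EiJ also held it. At Lrtm2, a leucine-rich repeat membrane protein gene, state 5 covered 12 bins in NZO/HlLtJ and 0 in any other strain. Of the 9 private bins at its starts, 6 went from state 13 to state 5. Rgs8 encodes a regulator of G protein signalling, and Fcamr a receptor for IgA and IgM. At Rgs8 a block of 12 bins over 2 of its 3 listed starts, and at Fcamr a block of 8, was in state 4 in every other strain and in state 14 in NZO/HlLtJ. At the start of Ccl20, which encodes a chemokine for lymphocytes and dendritic cells, 7 bins were in state 13 in the other strains and in state 14 in NZO/HlLtJ.

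**Figure D1:**
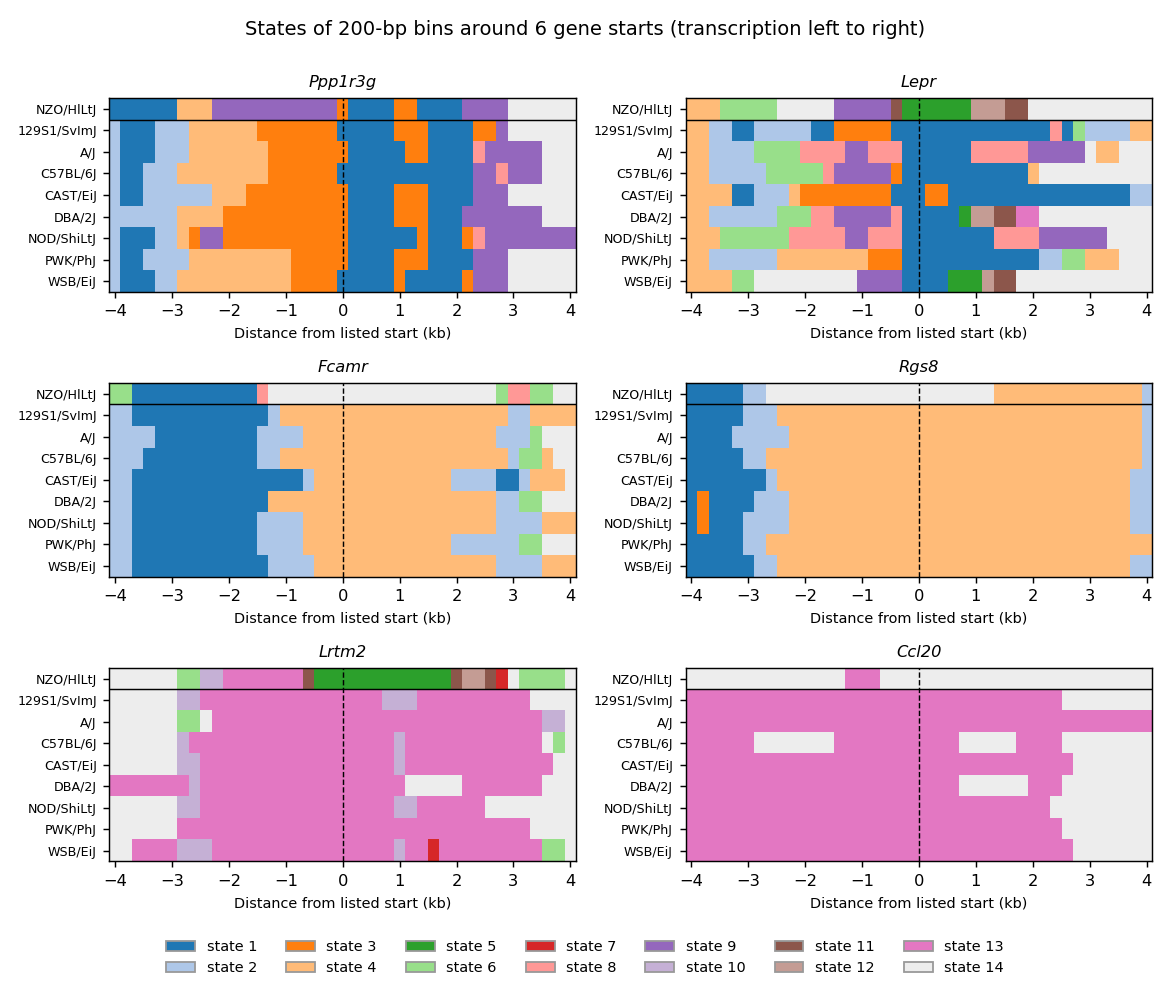
States of 200-bp bins (colours) in 9 strains (rows, NZO/HlLtJ on top) from 4 kb before to 4 kb after 6 listed gene starts, with the start at 0 (dashed line). In the top row state 9 lies before the Ppp1r3g start, state 5 lies over the Lepr and Lrtm2 starts, and state 14 lies over the Fcamr, Rgs8 and Ccl20 starts, where the other rows have states 3, 1, 13, 4, 4 and 13.

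NZO/HlLtJ ranked 7 of the 9 strains by its number of private bins. The other strains had 1.76% ± 1.28 (SD, n = 8) of the autosomal bins private, from 0.647% in C57BL/6J to 4.56% in PWK/PhJ, and the NZO/HlLtJ value of 0.823% lay inside that range. By kind of change, NZO/HlLtJ lay outside the other strains for exchanges only. Gains, in which the other strains shared state 14, made up 64.9% of its private bins, against 75.9% ± 8.79 (SD, n = 8) and a range of 61.3% to 85.8%. Losses, in which NZO/HlLtJ had state 14, made up 19.8%, against 14.3% ± 7.58 (SD, n = 8) and a range of 6.72% to 26.1%. Exchanges between 2 states other than 14 made up 15.3%, above all the others, which had 9.85% ± 2.78 (SD, n = 8) and at most 13.2%.

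**Figure D2:**
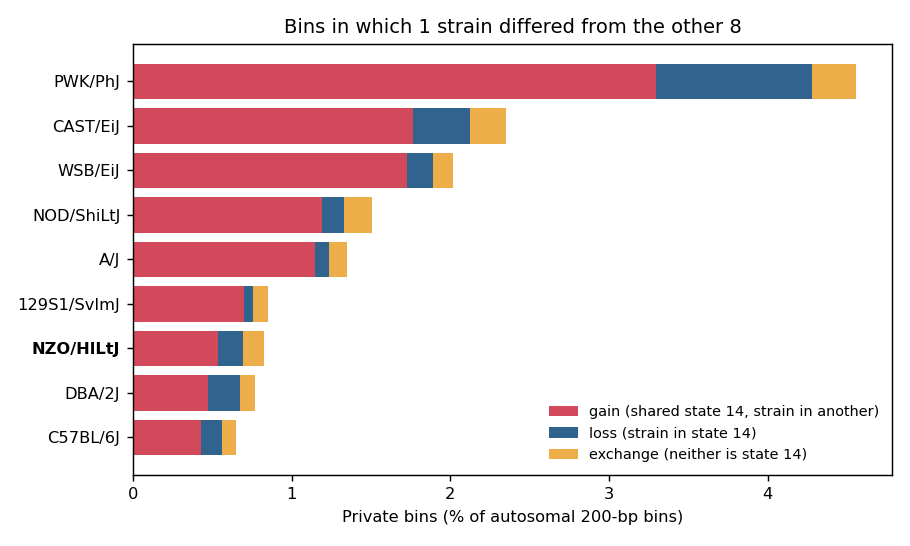
Private bins as percent of the autosomal 200-bp bins (x axis) for each of 9 strains (y axis), divided by colour into gains, losses and exchanges. NZO/HlLtJ, in bold, has 0.823% private bins, between DBA/2J and 129S1/SvImJ.

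By state, 39914 private bins (39.4%) went from shared state 14 to state 13 in NZO/HlLtJ and 14214 (14.03%) from state 14 to state 4. A further 13136 (12.96%) went from state 13 to state 14, 9407 (9.28%) from state 14 to state 6, and 5783 (5.71%) from state 4 to state 14. The share of state 4 losses was higher than in any other strain, where it was 1.28% ± 0.666 (SD, n = 8) and at most 2.16%. A second change with a higher share than in any other strain was state 2 to state 1, with 3807 bins (3.76%) against 1.03% ± 0.740 (SD, n = 8) and at most 2.36%. The reverse, state 1 to state 2, was seen in 283 bins. Of all private exchanges between these 2 states 6.92% went from 1 to 2, the lowest of the 9 strains, which otherwise ran from 17.2% to 91.8%.

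**Figure D3:**
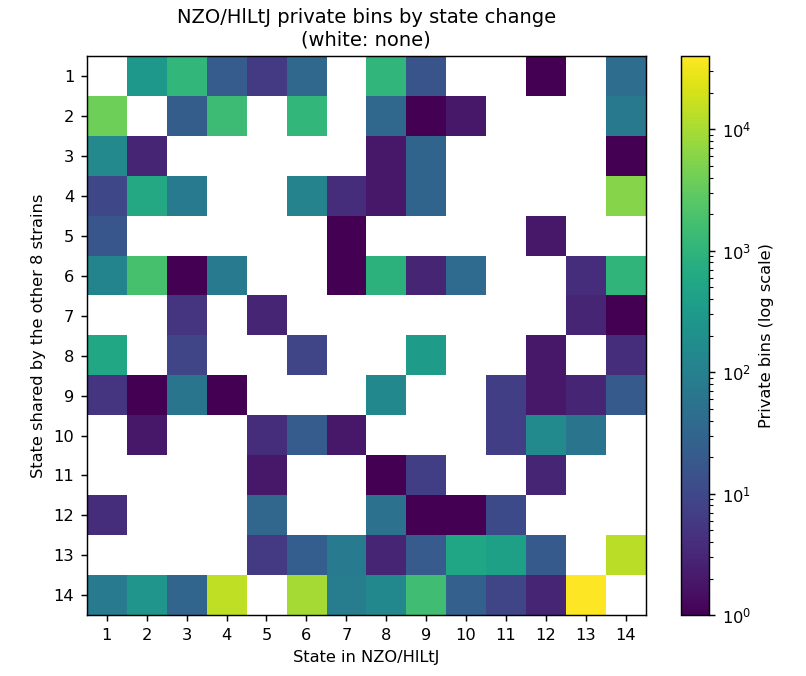
NZO/HlLtJ private bins by the state shared by the other 8 strains (y axis) and the NZO/HlLtJ state (x axis), coloured by number of bins on a log scale, with white for none. The bottom row holds the gains, led by 39914 bins from state 14 to state 13, and the right column the losses.

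Other exchanges were also one-sided. Between states 6 and 8, 915 private bins went from 6 to 8 and 9 went back. Between states 10 and 12, both found at developmental starts, 160 went from 10 to 12 and 1 went back. The shares in the leading direction, 99.0% and 99.4%, were above those of all other strains, whose highest values were 96.7% and 88.7%. Between states 1 and 3, both found at active starts, 1099 went from 1 to 3 and 147 went back, a share of 88.2%, second to DBA/2J with 93.2%. Over all autosomal bins, private or shared, state 3 held 0.466% of the autosomes in NZO/HlLtJ and at most 0.456% elsewhere, and state 2 held 1.93% and at least 1.98% elsewhere.

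State 4 was gained inside genes and lost between them. Of the private bins from state 14 to state 4, 82.5% lay within a protein-coding gene, against 52.7% ± 7.50 (SD, n = 8) and at most 65.6% in 129S1/SvImJ. Of those from state 4 to state 14, 32.4% lay within a gene, against 59.7% ± 11.3 (SD, n = 8) and at least 37.2% in 129S1/SvImJ. Genes hold 40.1% of all autosomal bins. The NZO/HlLtJ value lay outside the range of the other 8 strains in both directions, above it for gains and below it for losses.

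Every state 4 bin of a strain, private or shared, was then counted. In NZO/HlLtJ 66.4% of the state 4 bins lay within genes, and in the others 55.8% ± 2.38 (SD, n = 8), from 52.8% to 59.2%. Within genes state 4 covered 3.97% of the bins in NZO/HlLtJ, in the middle of the other strains with 3.86% ± 0.913 (SD, n = 8). Outside genes it covered 1.35%, below all others, which had 2.03% ± 0.388 (SD, n = 8) and at least 1.49%. This was not particular to state 4. State 2 covered 0.922% outside genes, against 1.28% ± 0.100 (SD, n = 8) and at least 1.15% in the others. Of the state 2 bins 71.4% lay within genes, against at most 69.4% elsewhere. Of all private bins of NZO/HlLtJ 50.9% lay in genes or start windows, against at most 47.7% in the others.

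**Figure D4:**
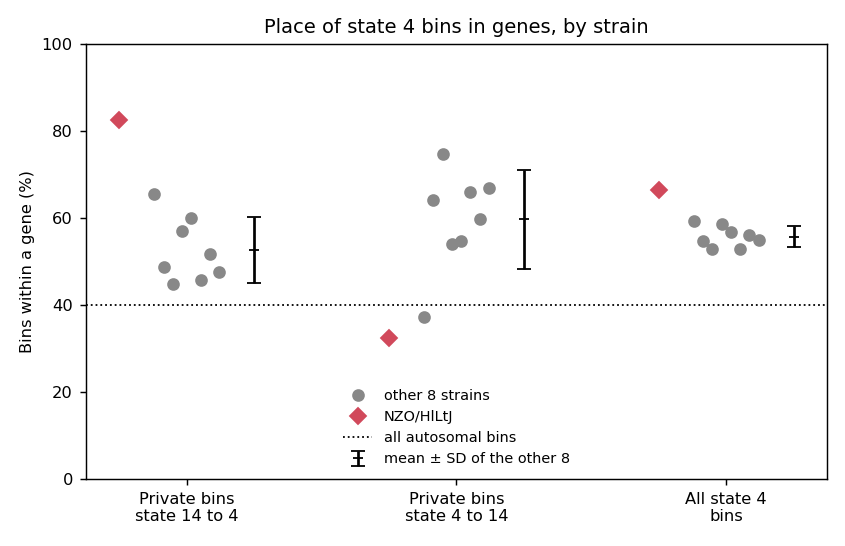
Percent of bins that lie within a gene (y axis) for private bins from state 14 to 4, private bins from state 4 to 14, and all state 4 bins, with NZO/HlLtJ as red diamonds, the other 8 strains as grey points, their mean ± SD as bars and all autosomal bins as the dotted line. NZO/HlLtJ is highest in the left and right columns, at 82.5% and 66.4%, and lowest in the middle one, at 32.4%.

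The state 4 gains also leaned toward the ends of genes. Genes with a known strand were cut into 3 equal stretches. In NZO/HlLtJ 53.1% of the bins from state 14 to state 4 lay in the last stretch and 14.5% in the first. The other strains had 42.3% ± 2.90 (SD, n = 8) and at most 46.0% in the last stretch. State 4 as a whole had this lean in every strain. Of all state 4 bins in such genes, 45.2% lay in the last stretch in NZO/HlLtJ and 38.7% to 44.5% in the others. Of the bins that went from state 4 to state 14 within such genes, 39.2% lay in the last stretch and 29.3% in the first, the latter above the range of 11.9% to 23.9% elsewhere. The gains touched 1989 genes, 9.62% of those on autosomes, and the state 4 losses touched 434, or 2.10%. Runs of state 4 gain extended a state 4 segment of NZO/HlLtJ itself in 70.4% of cases, and a bin next to the run was in state 4 in some other strain in 58.0%. These shares were near the means of the other strains, 67.8% and 57.3%.

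Gene starts were examined in windows of 1 kb to each side of every start that RefSeq lists. Such windows held 3.14% of the private bins, against 2.25% of all autosomal bins and 2.47% ± 0.693 (SD, n = 8) in the other strains. Of 20665 protein-coding genes, 2307 had a private bin in the window, a background of 11.2%, and 70 had at least 5, a background of 0.339%. For 4208 genes no start is listed and both ends of the gene were used, so that a private bin may lie at the far end. Among the 16457 genes with a listed start, 10.6% had a private bin there. The leading change in start windows was state 1 to state 3, with 653 bins or 20.5%, followed by state 14 to 13 with 468 bins, state 1 to 8 with 414 and state 14 to 4 with 210. Of all private bins from state 1 to 3, 59.4% lay in start windows, and of those from state 2 to 1 only 0.788%.

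The base makeup of the promoters differed with the kind of change. Over all 20085 listed promoters the stretch of 250 bases before the start held a median of 10 CpG dinucleotides (quartiles 3 and 19). The 307 promoters in which all private bins were exchanges had a median of 15 (quartiles 9.5 and 20), and the 100 with a change from state 1 to 3 had 17. Promoters that lay in state 1 throughout in the other 8 strains had a median of 5, and those in state 3 throughout had 23. The 79 promoters with gains had a median of 2 (quartiles 1 and 5), equal to the median of the 2715 promoters that lay in state 14 throughout in the other strains. The letters TATAAA, searched on both strands, stood in 26.6% of the gained promoters, in 27.3% of those state 14 promoters, in 4.56% of the exchanged ones and in 11.7% of all. AGGTCA, the half-site of nuclear receptors, stood in 21.5% of the gained, 17.8% of those state 14 promoters, 11.7% of the exchanged and 12.9% of all. Promoters in state 1 throughout in the other 8 strains had AGGTCA in 18.6% and TATAAA in 9.95%. Those in state 3 throughout had them in 7.31% and 3.03%. The exchanged values lay between these. CACGTG stood in 3.80% of the gained, 3.83% of those state 14 promoters, 7.49% of the exchanged and 6.69% of all. GTTAAT stood in 3.80%, 9.50%, 4.23% and 5.84% of the same sets. For both motifs the gained value rests on 3 of 79 promoters. These are matches of letters in a fixed window of the reference genome, and the NZO/HlLtJ sequence was not read. All 4 motifs were searched on both strands, and matches of different motifs can share bases.

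Beside Lrtm2 and Ccl20, the genes named here among the 15 with the most private bins in the start window fell into 3 kinds. The first were genes best known from other tissues. Olfr262 and Olfr1436, odorant receptor genes, went from state 13 to state 14 in 11 and 8 of 11 window bins, and Gm5414 did so in 10 of 11. Vmn1r221, a pheromone receptor gene, and Tas2r130, a bitter taste receptor gene, went from state 14 to 13 in 11 and 8 bins. Krt17, a keratin gene, went to state 13 in 7 bins at 1 of its ends, and the milk casein gene Csn1s2b went from state 13 to 14 in 7. Of 1104 Olfr genes 34 (3.08%) had a private start bin, below the background of 11.2%. At least 5 such bins were found in 7 of the 1104, a share above the background of 0.339%. Receptor and keratin genes have near-identical copies, between which reads can be split, so these values are uncertain.

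The second kind were genes that gained state 4 at an end. Ddb2, a DNA damage sensor, went from state 14 to state 4 in 7 bins, all at the end of the gene with the lower coordinate. In the whole gene NZO/HlLtJ had 23 state 4 bins and the other strains between 0 and 18. Arpc5l, an actin nucleation subunit, went to state 4 in 6 bins at 1 end. No start is listed for either gene. The third kind, Rgs8, Fcamr and 4930432M17Rik, lost state 4 at a start, over 12, 8 and 7 bins. In the whole of Rgs8 44 of 50 private bins went from state 4 to 14. Rgs8 had 55 state 4 bins in NZO/HlLtJ, and the lowest other strain had 79. Ddb2 and Rgs8 were picked by their private bins, which enter these counts, so the counts describe the genes only.

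Metabolic genes were followed in 10 lists with 232 autosomal members. Private bins lay in the start window of 18 of them (7.76%), against the background of 11.2% of all genes, and in the gene with 1 kb to each side for 113 (48.7%), against a background of 43.3%. At metabolic starts NZO/HlLtJ was level with the lowest strain, 129S1/SvImJ, which also had 18, and PWK/PhJ was highest with 48. The backgrounds at starts were 7.63% in C57BL/6J, 7.77% in 129S1/SvImJ, 10.7% in A/J, 11.9% in DBA/2J, 13.6% in NOD/ShiLtJ and WSB/EiJ, 15.7% in CAST/EiJ and 19.6% in PWK/PhJ. Against its own background 129S1/SvImJ thus had the same share, 7.76%, and NZO/HlLtJ a lower one. Over whole genes the other strains had 96 to 155 metabolic genes with a private bin, on backgrounds of 36.4% in C57BL/6J, 38.4% in 129S1/SvImJ, 40.8% in DBA/2J, 42.6% in A/J, 48.5% in WSB/EiJ, 54.1% in CAST/EiJ, 55.8% in NOD/ShiLtJ and 65.3% in PWK/PhJ. Gene length was not matched in these backgrounds, and the median gene had 111 bins in the lists and 99 over all genes. The median number of private bins per gene was 0 in the lists and 0 over all genes. Of the bins of metabolic genes 1.43% were private, and of those of all genes 1.03%. This ratio of 1.39 lay inside the range of the other strains, from 0.570 to 1.58. Of the private bins in metabolic genes 36.5% went from state 14 to 4, against 22.9% over all genes. The other strains ranged from 5.19% to 52.7% in metabolic genes, with 129S1/SvImJ above NZO/HlLtJ, and from 5.41% to 33.7% over all genes.

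At the metabolic starts most changes were single bins. Of the 18 genes 7 have no listed start, out of 50 such metabolic genes in the lists, and 11 have one, out of 182 (6.04%). Ccl2, which encodes a chemokine that draws monocytes into fat and liver, had 6 bins from state 14 to 13. All 6 lay within 1 kb of the end with the higher coordinate, and 1 of them also within 1 kb of the other end. No start or strand is listed for Ccl2, so these bins may lie at its far end. Its 11 state 13 bins compared with 5 in NOD/ShiLtJ, 2 in 129S1/SvImJ and 0 in the rest. Ppp1r3g had 4 bins from state 3 to 9. Pcx, which makes oxaloacetate for glucose production, had 2 bins from state 2 to 1, and Il1r1, the interleukin 1 receptor, 1 bin each from state 1 to 3 and 1 to 8. Among other genes, a single bin went from state 1 to 3 at Acss2, Elovl3, Dgat1, Idi1, Orm1 and Fgg. These encode an acetate-activating enzyme, a fatty acid elongase, the last enzyme of triglyceride synthesis, an enzyme of isoprenoid synthesis, and a pair of secreted plasma proteins. Single bins of other changes lay at Akt2, Cyp2a5, Saa1, Slc2a2 and Tm6sf2. No start window of the 25 genes of fatty acid oxidation and ketogenesis or of the 15 lipoprotein genes held a private bin, beside the background of 11.2%, and the other strains had 2 to 10 and 0 to 3 such genes. The acute phase list had 5 of 20 genes with a private start bin, beside the background of 11.2% and within the 1 to 5 of the other strains. Ccl2 is among the 5.

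Metabolic gene bodies were then searched for gains of state 4. At least 5 private bins from state 14 to state 4 were found in 17 of the 232 genes (7.33%), against a background of 4.25% of all genes. In the other strains the median was 7.5 genes and the highest 23. Their backgrounds were 1.65% in NOD/ShiLtJ, 2.15% in A/J, 2.50% in DBA/2J, 3.44% in C57BL/6J, 3.52% in WSB/EiJ, 3.84% in PWK/PhJ, 5.86% in 129S1/SvImJ and 8.93% in CAST/EiJ. The limit of 5 bins was set after the data were seen. In 7 of the 17 genes NZO/HlLtJ had more state 4 bins than any other strain, in 1 it tied with the highest, and in none was it below the median of the others. Since these genes were picked by their gain of state 4, the counts describe them and support nothing further.

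Several of the 17 handle fatty acids. Slc25a20, the carnitine carrier that brings fatty acids into mitochondria, had 15 private bins from state 14 to 4. It held 65 state 4 bins in NZO/HlLtJ, and 30 in 129S1/SvImJ, 29 in WSB/EiJ, 23 in DBA/2J, 21 in C57BL/6J, 11 in CAST/EiJ, 8 in A/J and 5 each in NOD/ShiLtJ and PWK/PhJ. NZO/HlLtJ was alone at the top, clear of the next strain. Ehhadh, an enzyme of peroxisomal oxidation, had 14 private bins and 77 state 4 bins, against 7 to 56 elsewhere. Hadhb, a subunit of the mitochondrial oxidation complex, had a single run of 15 private bins (chr5:30180601-30183600), but its 30 state 4 bins were fewer than the 41 of 129S1/SvImJ. Acadm, a medium-chain acyl-CoA dehydrogenase, had 9 private bins and tied with PWK/PhJ at 45.

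On the synthetic side, Me1, malic enzyme, which supplies NADPH for fatty acid synthesis, had 20 private bins. It held 74 state 4 bins in NZO/HlLtJ, 55 in PWK/PhJ, 50 in 129S1/SvImJ, 14 to 25 in CAST/EiJ, NOD/ShiLtJ, C57BL/6J and DBA/2J, 1 in WSB/EiJ and 0 in A/J. Acaca, the rate-limiting enzyme of fatty acid synthesis, had 18 private bins, yet its 275 state 4 bins ranked below 3 other strains. Gpam, the first enzyme of triglyceride synthesis, and Lpin2, a phosphatidate phosphatase, had 7 private bins each. Their 93 and 87 state 4 bins were above the highest of the other strains, which was 82 for both genes.

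Among genes of lipid export and cholesterol, Mttp, which loads triglyceride onto apolipoprotein B, had 17 private bins from state 14 to 4. It held 71 state 4 bins in NZO/HlLtJ, and the others ranged from 5 in A/J to 52 in 129S1/SvImJ with a median of 31.5. Abca1, the cholesterol exporter, had 19 private bins and 132 state 4 bins, level with 129S1/SvImJ and below CAST/EiJ with 156. Sqle, squalene epoxidase, had 1 run of 13 private bins (chr15:59325001-59327600). These were all its state 4 bins in NZO/HlLtJ, whereas DBA/2J had 7, 129S1/SvImJ 3 and the other 6 strains 0. Srebf2, the main regulator of cholesterol synthesis, had 7 private bins from state 14 to 4 and 77 state 4 bins, below 3 other strains.

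**Figure D5:**
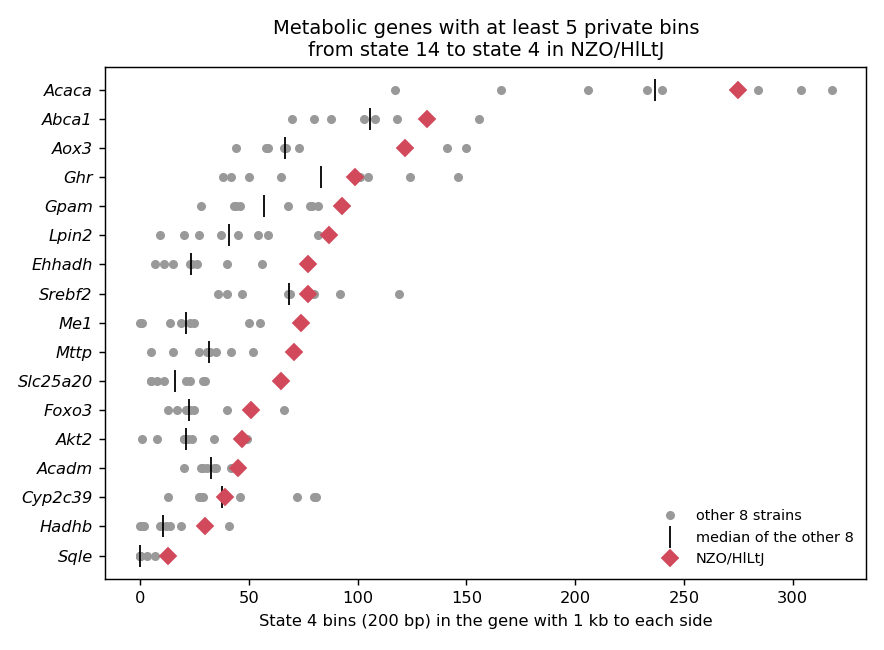
State 4 bins (x axis) in the 17 metabolic genes (y axis) with at least 5 private bins from state 14 to 4, counted in the gene with 1 kb to each side, with NZO/HlLtJ as red diamonds, the other 8 strains as grey points and their median as black ticks. The diamond lies right of all grey points at 7 genes, among them Slc25a20 at 65, Ehhadh at 77 and Me1 at 74.

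Hormone receptor and insulin signalling genes had private bins in 21 of 30 genes (70.0%), beside the background of 43.3% and equal to the median of the other strains. These genes are long, with a median of 266 bins per gene against 99 over all genes, and the background is not matched for length. Ghr, the growth hormone receptor, had 39 private bins, above the 12 to 28 of the others, of which 15 went from state 14 to 4 and 14 from state 2 to 1. Its 99 state 4 bins ranked only 5 among the strains, with WSB/EiJ highest at 146. Foxo3, a transcription factor held back by insulin, had 11 bins from state 14 to 4 in 1 run, and its 51 state 4 bins were fewer than the 66 of CAST/EiJ. State 2 to 1 also led at Lipc, hepatic lipase, with 12 of 17 private bins. Scarb1, the HDL receptor, went the other way with 10 of 16 bins from state 1 to 2.

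State 4 was lost in a few metabolic genes. Pfkfb3, which sets the level of a glycolysis activator, lost it in 11 of 12 private bins and had 91 state 4 bins, where the lowest other strain had 123. Cd36, a fatty acid transporter, lost it in 7 of 9 private bins and had 14 state 4 bins, where the lowest other strain had 29. Fabp2, a fatty acid binding protein of the intestine, had 0 state 4 bins and the others at least 5. Such genes were named for their private bins, and the lost bins were in state 4 in all other strains by definition. The low counts thus follow in part from the choice of genes and support nothing further.

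Fgg, the fibrinogen gamma chain gene, differed in another way. It had 7 private bins, all from state 1 to 3 and 5 of them adjacent, and no other strain had a private bin there. State 3 covered 30 of its 48 bins in NZO/HlLtJ, 18 in A/J and DBA/2J, 17 in C57BL/6J, 15 in 129S1/SvImJ and CAST/EiJ, 14 in PWK/PhJ and 13 in NOD/ShiLtJ and WSB/EiJ. Fgg was named for its private bins, and these are part of the 30, so the count describes the gene and supports nothing further. The neighbouring fibrinogen gene Fga had 2 bins of the same change, and G6pc, the last step of glucose release, had 3.

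Of 10 genes listed here as obesity or diabetes candidates, 6 had private bins in the gene with 1 kb to each side. This stood beside the background of 43.3% of all genes and within the 3 to 9 of the other strains. Which of the 10 were mapped in crosses of NZO mice is not given in the sources used here. The candidates had a median of 172 bins per gene against 99 over all genes, so that background is not matched for length. Igfbp2, which binds insulin-like growth factors, led with 15 bins against 0 to 5 elsewhere, 9 of them from state 2 to 4. It held 71 state 4 bins in NZO/HlLtJ and 22 to 54 in the others, and 21 state 2 bins where the lowest other strain had 31. Lepr and Tbc1d1, a regulator of glucose transporter traffic, had 6 private bins each, Abcg1 and Dpp4 had 4 each, and Gm4951 had 1. Zfp69, Pctp, Ifi202b and F830016B08Rik had 0. The medians of the other strains for Lepr and Tbc1d1 were 2.5 and 13 private bins.

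Marker genes of other liver cells were set beside these values. In NZO/HlLtJ states 1 to 4 covered 13.6% of the start bins of 9 Kupffer cell genes, against 2.27% to 12.9% in the other strains, and 47.9% of those of 10 endothelial genes, against 30.3% to 63.0%. The values for stellate, bile duct, lymphocyte and adipocyte genes (6.29%, 30.2%, 6.45% and 47.4%) lay within the ranges of the others. Private bins lay in the start windows of 0 of 9 Kupffer cell genes and 2 of 10 endothelial genes, beside the background of 11.2%. Adgre1, the macrophage marker F4/80, had 17 private bins in its body, of which 15 went from state 13 to 14. The 9 Kupffer cell genes together had 19 private bins, in 3 genes, so nearly all of them lay in Adgre1. The part of other cell types in the private bins was not tested.

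Private bins were spread over all autosomes, from 0.644% of chromosome 10 to 1.15% of chromosome 19. Among 2454 windows of 1 Mb the median held 37 private bins. The fullest window (chr8:18000001-19000000) held 328, 298 of them from state 14 to 13, where the other strains had 19 to 142 private bins. Most of them lay between genes, since the 3 genes of the window with the most, Mcph1, Xkr5 and Angpt2, held 13, 7 and 6. The windows on chromosomes 9, 8 and 2 that followed with 258, 227 and 223 bins were also led by state 14 to 13, and each overlapped a long gene. In the chromosome 9 window the other strains had 6 to 124 private bins, but DBA/2J had 256 in that on chromosome 8 and WSB/EiJ 236 in that on chromosome 2, both above NZO/HlLtJ. Slc9a9, a sodium-proton exchanger gene, had 174 private bins, 168 of them of this change, and 419 state 13 bins against 42 to 369 in the others. Unc5d, a netrin receptor gene, had 147 private bins. It held 1208 state 13 bins in NZO/HlLtJ and 1209 in DBA/2J and a median of 157.5 over the other 8 strains. Cdh4, a cadherin gene, had 136 private bins. It held 624 state 13 bins in NZO/HlLtJ, close to 599 in C57BL/6J.

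The window on chromosome 19 (chr19:20000001-21000000) differed from these, since 150 of its 254 private bins went from state 13 to 14. At its genes other changes led. Aldh1a1, an aldehyde dehydrogenase, had 26 private bins, 16 of them from state 2 to 1, and Tmc1, a channel of hair cells, had 38, 14 of them from state 14 to 6. The chromosome as a whole showed the same lean. On chromosome 19 losses made up 46.1% of the private bins and gains 37.7%, while on each of the other autosomes losses made up 12.8% to 21.6%. PWK/PhJ had a similar lean, with losses at 47.3% and gains at 40.9% of its private bins on this chromosome. The mean loss share there, PWK/PhJ included, was 18.9% ± 14.1 (SD, n = 8). Of the chromosome 19 private bins 40.5% went from state 13 to 14, against 14.1% ± 11.1 (SD, n = 8) in the other strains and at most 36.1% in PWK/PhJ. These bins lay in 39 windows of 1 Mb, and the 5 fullest held 43.1% of them.

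The longest run of private bins (chr15:101627401-101642800) had 77 bins, all in state 13 in the other strains and in state 14 in NZO/HlLtJ, and it overlapped Gm5414. The next (chr4:118810201-118818600) had 42 bins of the same change beside Olfr1335. Among the 10 longest runs, those in Mcc (29 bins) and Myom3 (28 bins) went wholly from state 14 to 4, and that in Dym (30 bins) held 15 bins of this change and 13 from state 14 to 2. A run of 29 bins at Prkra (chr2:76612401-76618200), whose product activates a double-stranded RNA kinase, was in state 14 in all other strains. In NZO/HlLtJ it held states 1, 9, 4, 8, 3 and 6, with 10 bins of state 1. Tlcd3a had a run of 28 bins in state 13 and 38 state 13 bins in all, and the other 8 strains had 0.

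NZO/HlLtJ also shared states with 1 other strain against the remaining 7. The number of such bins ran from 12046 with C57BL/6J to 28329 with PWK/PhJ, fewer than its 101333 private bins in every case. When private bins were joined only within 1 kind of state change, they gave 44141 runs. Next to 2.11% of these all other strains had the NZO/HlLtJ state in the adjoining bin. In 72.9% at least 1 of the other strains had the NZO/HlLtJ state next to the run.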

How the data were processed

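The deposited files hold 1 segmentation per strain. In each, the authors gave every stretch of the genome a state number as its name, a categorical label from 1 to 14, and the score column is 0 throughout, per the files. The submitters' processing notes name the build mm10, MACS 1.4.2 and FastQC 0.11.5. The segmentation tool, the aligner, the marks of each state and the read depth are not given in the sources used here. Replicate mice were already combined, so no spread within a strain could be computed, and a state boundary can be no finer than 200 bp.

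Segments were cut into 200-bp bins with Python 3.11.15, numpy 2.4.6 and pandas 2.3.3, and figures were drawn with matplotlib 3.10.9. The bin search was tested on simulated data, where 5000 of 5000 planted private bins were found with 0 false ones. NZO/HlLtJ values were set beside the same values for each of the other 8 strains, with no test beyond the limit of Dixon's test in the closing section. Genes, starts and promoters came from RefSeq GRCm38.p6, whose coordinates are those of mm10. Genes that overlap share bins.

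The members, gene lists and settings were chosen with earlier results of these data known. Named genes were the 15 with the most private start bins, those at the 10 longest runs, up to 3 in each of the 5 fullest 1-Mb windows, up to 4 per metabolic list by private bins, and the listed obesity or diabetes candidates. Further genes (Acadm, Akt2, Dgat1, Acss2, Elovl3, Idi1, Orm1, Saa1, Cyp2a5, Tm6sf2, Pcx, Srebf2 and the marker Adgre1) were outside this rule and were named after their values were seen. The comparison of state 4 within and outside genes, along genes and by promoter was chosen after the data were seen. The alternatives tried are given in the closing section. Pfkfb1 and Vsig4 are not among the autosomal protein-coding genes and were left out. Some genes that meet these rules are not reported here.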

Additional observations from a re-analysis of the deposited data

Results flagged for a closer look

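Among 42 sets of 9 strain values, 7 had 1 strain farther from its neighbour than the 95% limit of Dixon's test for 9 values. Chance flags about 1 in 20 sets, or 2.1 of 42, but the sets overlap and most are built from the private bins, so the number beyond the limit cannot be set against that value. NZO/HlLtJ was the strain set apart in 2 of them. Of its private bins 5.71% went from state 4 to state 14, and 66.4% of all its state 4 bins lay within genes. Both sets were added after the first values of these data were seen, and the former is built from the private bins. Both flags thus describe NZO/HlLtJ and support nothing further. The other 5 concerned other strains. PWK/PhJ had 4.56% of the autosomal bins private, or 6.98% of the bins on which the other 8 strains had 1 state, and 96.8% of its private exchanges between states 9 and 14 went from 9 to 14. In 129S1/SvImJ 3.63% of the private bins went from state 6 to state 2. In A/J 33.3% of the private exchanges between states 7 and 13 went from 7 to 13.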

How the results depend on the processing

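No paired analysis was possible because the files hold 1 combined segmentation per strain. The number of private bins fell to 65131 where no other strain had the NZO/HlLtJ state within 1 bin and to 51156 with states 13 and 14 merged. Without each of the other 8 strains in turn it ran from 114616 to 134276. The share of gains was 60.6% where 7 of 8 strains had to share a state, 68.7% in runs of at least 2 bins, 70.0% with no such state within 1 bin, 58.2% with the merged states, 64.4% with chromosome X, and 58.4% to 66.1% with 1 strain left out. The share of losses was 18.6%, 22.0% and 13.7% with 7 of 8 strains, longer runs and merged states, and 18.4% to 25.6% with 1 strain left out. Genes with a private start bin numbered 531 with longer runs, 704 with no such state within 1 bin, 5713 with 5 kb to each side and 8203 over the whole gene, and 2575 to 2875 with 1 strain left out. Metabolic genes with one numbered 6, 7, 78 and 102 under the same 4 settings, and 21 to 26 with 1 strain left out. The share of private bins in start windows was 3.47%, 1.73%, 1.93% and 5.42% with 7 of 8 strains, longer runs, no such state within 1 bin and merged states, 11.03% with 5 kb, 49.8% over the whole gene, and 3.03% to 3.35% with 1 strain left out. Runs that continued a shared state made up 1.80%, 0.549%, 0% (by construction) and 3.22% under the same 4 settings, and 2.26% to 2.66% with 1 strain left out. Alternatives for state 4 were added after the data were seen. The share of state 4 gains within genes was 81.5%, 83.4% and 83.2% with 7 of 8 strains, longer runs and no such state within 1 bin, and 80.9% to 83.6% with 1 strain left out. The share of state 4 losses within genes was 32.1% to 34.8% with 1 strain left out. Most genes with a private start bin were thus called on single bins, the finest step of the segmentation, and the depth that limits them is unknown.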
